A study of Mus musculus with 12 samples.

Results

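The genes described here encode the factors that start and elongate translation on cytosolic ribosomes. They were chosen by name and level, as the protein-coding genes whose symbol begins with Eif1 to Eif6 or with Eef1 or Eef2 and whose mean expression was at least 1 FPKM over the 12 libraries (FPKM is a read count scaled to gene length and library size). Of 54532 listed genes 68 were protein-coding and carried such a symbol, and 61 of them made the set. Eif2ak3, the kinase PERK, was left out by the rule although its mean was 8.47 FPKM. The level chose the members, so it is given as a description. The lowest members were Eif2b3 at 1.83, Eif2ak4 at 2.55 and Eef2k at 3.25 FPKM. Just below the threshold were Eif3j2 at 0.904 FPKM and Eif4ebp3 at 0.684 FPKM, and Eef1akmt3 was far below it at 0.0432 FPKM. Eef1a2, Eif2s3y and Eif4e1b had 0 reads in each of the 12 libraries.

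Initiation begins when eIF2 brings the initiator tRNA to the small ribosomal subunit, together with eIF1, eIF1A, eIF5 and the large scaffold eIF3. The eIF4 factors bind the mRNA cap and unwind the leader, after which the subunits join with the help of eIF5B. During elongation eEF1A delivers aminoacyl-tRNAs and eEF2 moves the ribosome along the message. Activated T cells raise their protein synthesis as they leave the resting state, and mTOR, the MAP kinases and the eIF2 kinases act on several of these factors.

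Mouse primary CD8+ T cells received a non-targeting siRNA (siNTC) or an siRNA against Creb1 (siCreb1), the gene of a cAMP-responsive transcription factor, and were sampled after 24 h with or without trans-vaccenic acid (TVA), a long-chain fatty acid. This gave 4 groups of 3 libraries, called siNTC, siNTC+TVA, siCreb1 and siCreb1+TVA, and the labels name DMSO as the treatment of the groups without TVA. The siNTC cells are labelled as wild type, and the labels do not say whether the 3 libraries of a group came from separate mice or cultures. P-values therefore measure the spread between these libraries only, which may be technical. In bulk RNA, fewer cells of a type and less RNA per cell cannot be told apart.

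Creb1 was at 10.98, 10.3 and 10.5 FPKM in siNTC, 11.03, 11.97 and 12.4 in siNTC+TVA, 1.19, 1.29 and 1.77 in siCreb1 and 1.81, 1.67 and 1.17 in siCreb1+TVA. All 6 libraries with the Creb1 siRNA lay below the 6 without it, with a log2 fold change of -2.27 without TVA and -2.34 with TVA. All 6 CD8 T cell markers (Cd3e, Cd3d, Cd8a, Cd8b1, Cd2 and Trac) were present in each library, at 92.0 FPKM for Cd3e in its lowest library, and their summed level was 2349.7 to 2375 FPKM in siNTC, 2329 to 2348 in siNTC+TVA, 2234 to 2239 in siCreb1 and 2219 to 2230.2 in siCreb1+TVA. The sum was lower in both groups with the Creb1 siRNA, and its part in the differences given here was not tested. The markers of B cells, CD4 T cells, NK cells, myeloid cells and erythroid cells summed to at most 8.72 FPKM per cell type in any library, and Hba-a2 and Hbb-bs were at 0. The highest sum was that of the 4 myeloid markers, at 5.88 to 7.13 FPKM in siNTC, 4.87 to 6.39 in siNTC+TVA, 4.89 to 6.49 in siCreb1 and 7.34 to 8.72 in siCreb1+TVA, almost all of it Lyz2. The siCreb1+TVA libraries, in which 50 of the 61 factors were lower than in siNTC+TVA, thus held the highest myeloid sum, and its part in the differences was not tested. The other 3 myeloid markers (Itgam, Adgre1 and Csf1r) were at most at 0.273 FPKM in any library. At least 99.995% of the values of a library lay within 0.05 reads of a whole multiple of 1 read, which gave 16660234 to 24602484 reads per library. The library siNTC replicate 1 held the highest Eef1a1, Eef2, Eif3f and Eif4b of all 12.

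The members spanned a range from 1.83 to 5075 FPKM, with a median of 30.2 FPKM against 8.17 FPKM for the 11550 genes with a mean of at least 1 FPKM. Eef1a1, the main tRNA carrier of elongation, ranked 3 by mean FPKM among all listed genes. Together with the translocase Eef2 it made up 63.9% of the summed FPKM of the 61 genes. Above 100 FPKM were 10 members, 40 lay from 10 to 100 and 11 were under 10. The highest library was between 1.06 and 1.4996 times the lowest for any member, with a median of 1.17 times. Between replicates of a group the median coefficient of variation was 3.18%.

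**Figure D1:**
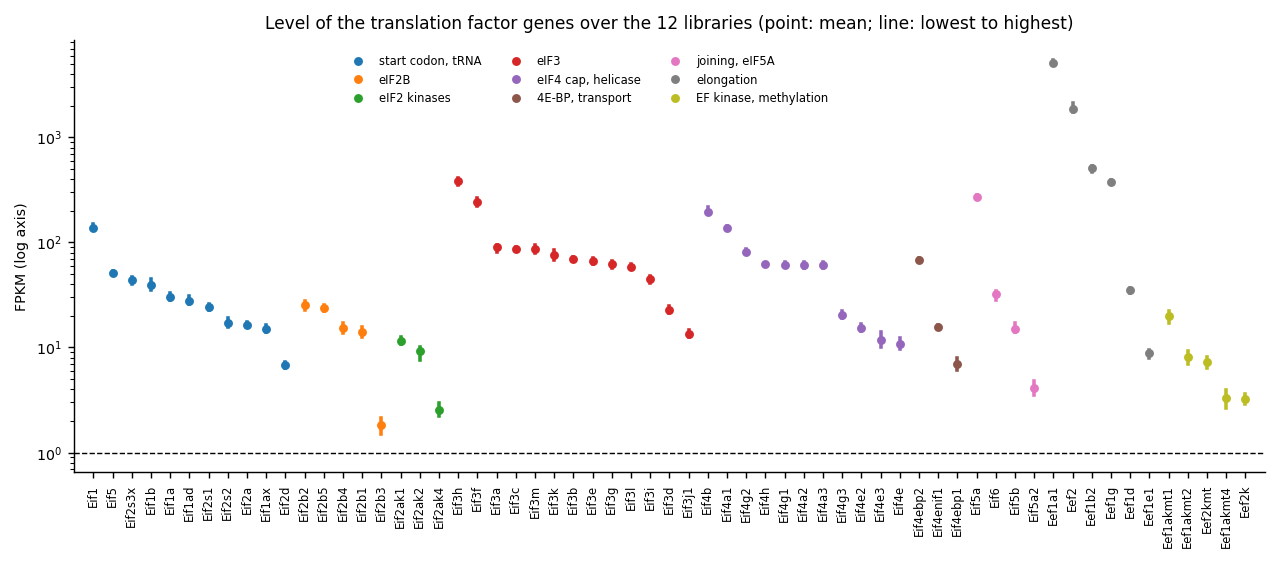
Mean level of the 61 translation factor genes over the 12 libraries in FPKM on a log axis, ordered by role, with a line from the lowest to the highest library and a dashed line at the minimum of 1 FPKM. Eef1a1 at 5075 FPKM stood highest and Eif2b3 at 1.83 FPKM lowest, and the lines are short beside the distances between genes.

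Most paralogues were unequal in FPKM, and a ratio between 2 genes depends on the length listed for each. Of the eIF4A helicases, which unwind the leader, Eif4a1 had a mean of 137 FPKM, and Eif4a2 and the exon junction member Eif4a3 had 60.8 and 60.6 FPKM. A processed pseudogene, Eif4a-ps4, was listed at 83.7 to 94.0 FPKM, so reads of Eif4a1 may have been split between the pair. Of the eIF4G scaffolds, Eif4g2 had 81.6 FPKM, Eif4g1 61.4 FPKM and Eif4g3 20.6 FPKM. The RNA of the cap-binding proteins was low, with Eif4e2 at 15.4, Eif4e3 at 11.7 and Eif4e itself at 10.7 FPKM. Their listed lengths were 7497, 2515 and 6008 bases. In each library Eif4e2 was 1.23 to 1.64 times Eif4e in FPKM. Among the genes of the eIF4E repressors, Eif4ebp2 was 8.78 to 11.2 times Eif4ebp1 in each library, at means of 68.5 and 7.02 FPKM. Eif5a, the factor that carries hypusine, was 54.3 to 77.8 times Eif5a2. Eif1 was 3.26 to 3.78 times Eif1b, and Eif1a 1.88 to 2.21 times its X-linked copy Eif1ax. Eif2s3x, the gamma subunit of eIF2 on the X chromosome, was at 44.3 FPKM, and Eif3j1, a loosely held eIF3 subunit, was at 13.4 FPKM against 0.904 FPKM for Eif3j2. Of the eIF2 kinases, which stop initiation by phosphorylating eIF2, Eif2ak1 (HRI) had 11.6 FPKM, Eif2ak2 (PKR) 9.23 FPKM and Eif2ak4 (GCN2) 2.55 FPKM.

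Between the 4 groups the factors moved little, and 13 of the 61 were called in at least 1 of 5 comparisons (21.3% against 21.4% of all genes). A gene was called at an adjusted p under 0.05 in limma on log2(FPKM + 1), with the Benjamini-Hochberg adjustment over all 11550 genes. TVA in siNTC cells called 4 members, the rises of Eif4a1 and Eif3a and the falls of Eef2 and Eif3h, that is 6.56% of 61 against 7.38% of all genes. In siCreb1 cells TVA called 0 members, against 0.537% of all genes. At an unadjusted p under 0.05 there were 12 members in that comparison, 2 higher and 10 lower, against 9.58% of all genes (4.19% higher, 5.39% lower), and limma-voom on the recovered reads called 2 members and 1.36% of all genes. Knockdown without TVA called 8 members, 3 higher and 5 lower (13.1% against 13.7% of all genes, 6.52% higher and 7.21% lower). With TVA it called 10, 1 higher and 9 lower (16.4% against 10.1%, 4.64% higher and 5.51% lower). The interaction, the TVA difference in siCreb1 cells minus that in siNTC cells, called 1 member, Eif4a1, against 2.24% of all genes. The share was above that of all genes for knockdown with TVA and below it in the other 4 comparisons, and the 5 comparisons share their groups.

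The called differences in mean FPKM were between 5.51% and 12.9% in size. The 95% interval of the difference in log2(FPKM + 1) lay within 1.25-fold of FPKM + 1 in either direction for all 61 members in 3 of the 4 comparisons of 2 groups. With TVA in siCreb1 cells it did so for 60 of 61, and Eif4e3 was the exception. For the lowest members this bound allows a larger fold in FPKM itself. For all genes the same was so of 68.1% to 76.8%. The 2 shares are not matched for level, at a median of 30.2 FPKM for the members and 8.17 for all genes tested. The median standard error was 0.036 for the members and 0.063 for all genes. The median log2 difference over the members was 0.0014 for TVA in siNTC cells, -0.032 for TVA in siCreb1 cells, -0.030 for knockdown without TVA and -0.072 for knockdown with TVA. Over all genes the 4 medians lay between -0.012 and -0.0011. In number, 31 members were higher and 30 lower with TVA in siNTC cells, 13 and 48 with TVA in siCreb1 cells, 26 and 35 after knockdown without TVA, and 11 and 50 after knockdown with TVA. Of all genes 50.4% to 54% were lower in these comparisons. When each library was rescaled to the same sum of length-scaled counts (TPM), the balance after knockdown without TVA turned to 36 higher and 25 lower, and that with TVA became 23 and 38, while 61.2% to 62.6% of all genes were higher there.

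Single libraries were separated most often after knockdown with TVA. With TVA in siNTC cells 11 members had all 3 libraries above the controls and 6 had all 3 below, against 11.7% and 12.2% of all genes. For TVA in siCreb1 cells the counts were 2 above and 15 below (8.09% and 9.01% of all genes). Knockdown without TVA gave 5 above and 14 below (15.5% and 16% of all genes), and with TVA 3 above and 32 below (14.3% and 17.6%). The 32 members below are the count furthest from its background. This count depends on the scaling, with 3 members below under TPM (7.13% of all genes), 10 under TPM over protein-coding genes (9.34%) and 14 under quantile normalization (14.8%). In the same order 5, 9 and 5 members lay above, against 19.7%, 22.6% and 14.7% of all genes.

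**Figure D2:**
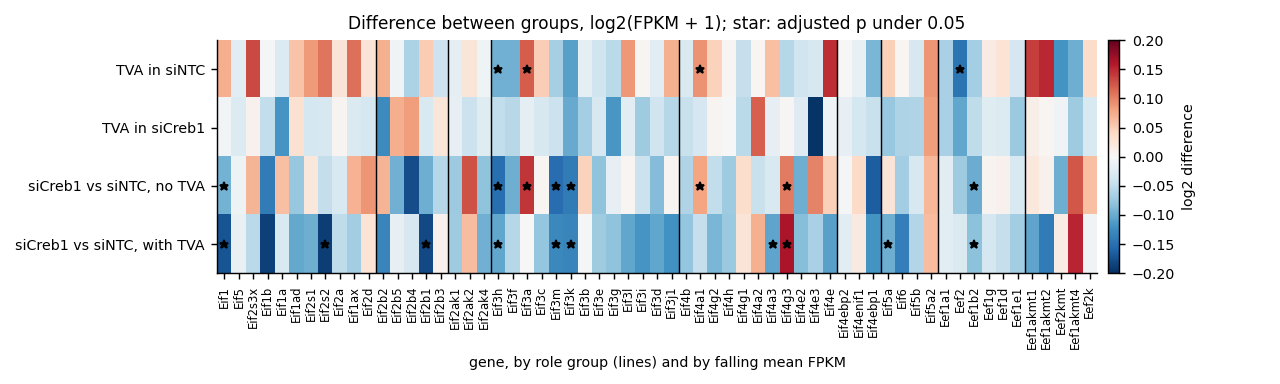
Difference in log2(FPKM + 1) for each of the 61 genes (columns, by role) in the 4 comparisons of 2 groups (rows), blue for lower and red for higher, with a star at an adjusted p under 0.05. The bottom row, knockdown with TVA, is mostly blue, with 50 of 61 genes lower and 10 stars.

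The sign of the member median after knockdown without TVA depends on how the libraries are scaled. So do the numbers called in each direction after knockdown. The summed FPKM of all protein-coding genes was 302554 ± 2418 in siNTC, 299067 ± 1325 in siNTC+TVA, 294020.0 ± 1285 in siCreb1 and 288462 ± 1882 in siCreb1+TVA (SD, n = 3), and that of the 82 cytosolic ribosomal protein genes was 70890.4 ± 1638 in siNTC, 68335 ± 765 in siNTC+TVA, 68095 ± 1281 in siCreb1 and 64388 ± 1369 in siCreb1+TVA. The library size behind the FPKM was 0.987 to 0.999 times the summed reads in siNTC, 0.999 to 1.00 times in siNTC+TVA, 1.01 times in siCreb1 and 1.01 to 1.02 times in siCreb1+TVA. TPM divides each library by its FPKM sum over all listed genes, not only the protein-coding ones, and those sums are not given here. It raised values in the siCreb1 groups relative to the siNTC groups. The median of all genes in the knockdown comparisons moved to 0.043 without and 0.037 with TVA. Under TPM the members called were 0 with TVA in siNTC cells, 3 without TVA after knockdown (3 higher, 0 lower) and 1 with TVA (1 higher, 0 lower), against 4.81%, 10.4% and 6.41% of all genes. TPM over protein-coding genes only, an alternative chosen after seeing the data, gave 4 (2 higher, 2 lower), 6 (5 higher, 1 lower) and 5 (3 higher, 2 lower), against 6.97%, 14% and 10.7% of all genes. Quantile normalization gave 1 (1 higher), 7 (5 higher, 2 lower) and 5 (3 higher, 2 lower), against 6.67%, 12% and 8.05%. In these 3 scalings knockdown without TVA called 7.86%, 9.87% and 6.48% of all genes higher and 2.57%, 4.1% and 5.52% lower. With TVA it called 5.37%, 8.54% and 5.15% of all genes higher and 1.04%, 2.12% and 2.9% lower. The members' share was 0%, 4.92% and 1.64% under TPM, 6.56%, 9.84% and 8.2% under TPM over protein-coding genes and 1.64%, 11.5% and 8.2% under quantile normalization. For knockdown with TVA the share above that of all genes in the deposited FPKM was thus below it under both TPM scalings and close to it under quantile normalization. The member median after knockdown without TVA turned from -0.030 to 0.016 under TPM, and that with TVA stayed below 0 under each scaling. Both member medians lay below those of all genes in the deposited FPKM (-0.0011 and -0.012) and under TPM (0.043 and 0.037). No called gene changed direction under any of its 22 alternatives (21 for the interaction).

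**Figure D3:**
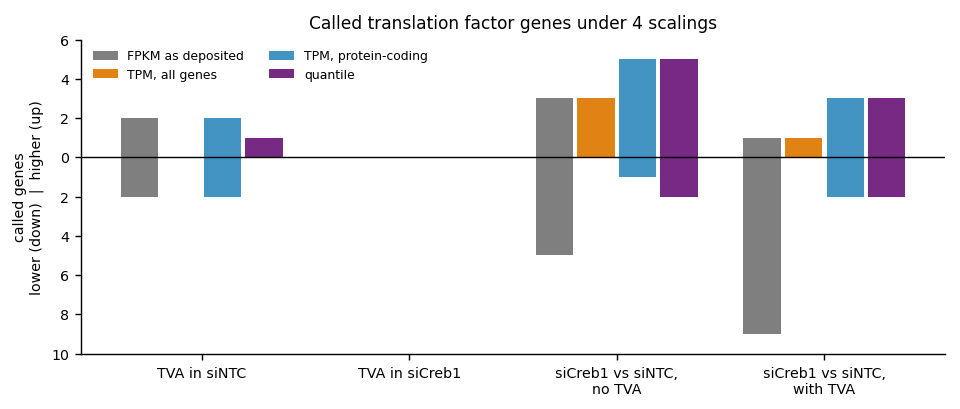
Number of translation factor genes called higher (above 0) and lower (below 0) in each comparison under 4 scalings of the same values. The 9 genes called lower after knockdown with TVA became 0 under TPM and 2 under the other 2 scalings, while 1 to 3 were called higher.

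Of the 11 genes that select the start codon and hold the initiator tRNA, Eif1 and Eif2s2 were called. Eif1, which guards the fidelity of start codon choice, was at 136, 144 and 144 FPKM in siNTC, 146, 150.0 and 148 in siNTC+TVA, 129.9, 134 and 132 in siCreb1 and 132, 132 and 131 in siCreb1+TVA. The siCreb1 and siCreb1+TVA libraries all lay below the siNTC and siNTC+TVA libraries. Eif1 fell after knockdown by limma with Benjamini-Hochberg adjustment, with a log2 fold change of -0.094 (SE 0.025, adjusted p = 0.0302) without TVA and -0.17 (SE 0.025, adjusted p = 0.00312) with TVA. The first call was lost without siNTC replicate 2 or 3 or siCreb1 replicate 1 or 3 (adjusted p = 0.0918, 0.0902, 0.104 and 0.0789 in limma). The second held without each library. Under TPM both calls were lost (0.428 and 0.0593 in limma). With TPM over protein-coding genes and with quantile normalization the first was lost (0.202 and 0.15 in limma) and the second was kept (0.0138 and 0.0238).

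Eif2s2, the beta subunit of eIF2, was at 16.9, 17.0 and 17.5 FPKM in siNTC, 19.0, 17.8 and 18.8 in siNTC+TVA, 16.5, 17.2 and 16.0 in siCreb1 and 16.4, 15.8 and 16.3 in siCreb1+TVA. The siNTC+TVA libraries were the highest of the 4 groups, and those of siCreb1+TVA lay below all of them. In limma the difference after knockdown with TVA was -0.19 (SE 0.035, adjusted p = 0.00908), and it held without each library in turn but not under TPM (0.143). It was kept in limma under TPM over protein-coding genes (0.0342) and quantile normalization (0.0171). Its partners did not pass: with TVA in siNTC cells Eif2s3x differed by 0.13 (SE 0.039, adjusted p = 0.074) and Eif2s1, the alpha subunit with the regulatory serine, by 0.085 (SE 0.036, adjusted p = 0.203). In the same comparison Eif2s2 differed by 0.11 (SE 0.035, adjusted p = 0.0977), and all 3 eIF2 subunits had siNTC+TVA libraries above each siNTC library. In the interaction 11 of 11 genes of this group were lower, with a median of -0.079, against 43 of 61 members and 49.3% of all genes. With TPM over protein-coding genes 10 of 11 were lower, against 39 of 61 members and 46.4% of all genes. None was called in the interaction by limma or limma-voom, and 5 had an unadjusted p under 0.05, each lower. Of the 61 members 13 did so, 12 of them lower, against 14.3% of all genes (8.2% lower). Eif1b, the close copy of Eif1, differed by -0.19 (SE 0.060, adjusted p = 0.0761) after knockdown with TVA and did not pass. Eif5, the GTPase activator of eIF2 and the most abundant gene of this group after Eif1, was at 49.5 to 52.9 FPKM over the 12 libraries and was not called.

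Of the 5 subunits of eIF2B, which recharges eIF2 with GTP, Eif2b1 (alpha) was called. It was at 14.3, 15.01 and 14.4 FPKM in siNTC, 15.8, 14.4 and 15.2 in siNTC+TVA, 13.8, 13.2 and 13.6 in siCreb1 and 12.5, 14.2 and 13.1 in siCreb1+TVA. Each siCreb1+TVA library lay below each siNTC+TVA library, while siCreb1 and siCreb1+TVA overlapped. Eif2b1 fell after knockdown with TVA in limma, with a log2 fold change of -0.18 (SE 0.047, adjusted p = 0.0355). The call was lost without siNTC+TVA replicate 1 or 3, siCreb1 replicate 3, or siCreb1+TVA replicate 1 or 3 (adjusted p = 0.109, 0.0864, 0.0507, 0.115 and 0.0933 in limma), and under each of the 3 other scalings. After knockdown without TVA the catalytic subunit Eif2b5 differed by -0.096 (SE 0.031, adjusted p = 0.0622) and Eif2b4 by -0.18 (SE 0.059, adjusted p = 0.0733), which did not pass. Eif2b2, the most abundant subunit at 25.3 FPKM, was not called. None of the 3 eIF2 kinases was called by limma or limma-voom in the 5 comparisons, and 0 had an unadjusted p under 0.05. Eif2ak1 ranged from 10.8 to 12.6 FPKM, Eif2ak2 from 7.61 to 10.1 FPKM and Eif2ak4 from 2.25 to 2.99 FPKM.

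Of the 13 genes of eIF3, the complex that links the small subunit to the mRNA, 4 were called, and 3 of these moved down and 1 up. Their levels ran from 13.4 FPKM for Eif3j1 to 382 FPKM for Eif3h. Summed over the 13 genes the level was 1357 ± 23.2 in siNTC, 1313 ± 8.64 in siNTC+TVA, 1286 ± 5.58 in siCreb1 and 1240.1 ± 6.37 in siCreb1+TVA FPKM (SD, n = 3). All 13 were lower with TVA in siCreb1 cells, 11 of 13 under TPM over protein-coding genes, with 4 at an unadjusted p under 0.05 and 0 called by limma or limma-voom. Of all genes 50.8% were lower there, 37.4% under TPM over protein-coding genes, and 9.58% had an unadjusted p under 0.05. After knockdown with TVA 12 of 13 were lower (10 to 11 under the other scalings), of which 3 were called (23.1% against 10.1% of all genes). Of all genes 54% were lower in that comparison, and 38.8% to 53% under the other scalings.

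Eif3h, which forms a module with Eif3f and Eif3m, was at 412, 412 and 413 FPKM in siNTC, 387, 384 and 387 in siNTC+TVA, 369, 373 and 372 in siCreb1 and 359, 349 and 369 in siCreb1+TVA. The 4 groups did not overlap, although siCreb1+TVA replicate 3 came close to siCreb1 replicate 1. In limma Eif3h fell with TVA in siNTC cells (-0.095 (SE 0.021, adjusted p = 0.0186)), after knockdown without TVA (-0.15 (SE 0.021, adjusted p = 0.00138)) and after knockdown with TVA (-0.10 (SE 0.021, adjusted p = 0.0124)). With TVA in siCreb1 cells the difference was -0.049 (SE 0.021, adjusted p = 0.486). The first call was lost without siNTC replicate 3 or siNTC+TVA replicate 2 or 3 (adjusted p = 0.0517, 0.0685 and 0.0565 in limma). Under TPM the 3 adjusted p were 0.152, 0.0713 and 0.387. In limma they were 0.0318, 0.00424 and 0.111 under TPM over protein-coding genes and 0.1, 0.0232 and 0.0731 under quantile normalization.

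Eif3a, the largest subunit of the core, moved the other way and was at 87.7, 80.4 and 84.9 FPKM in siNTC, 90.7, 92.2 and 92.5 in siNTC+TVA, 94.1, 93.7 and 91.6 in siCreb1 and 89.8, 93.1 and 92.7 in siCreb1+TVA. The 3 siNTC libraries were the lowest of the 12, and the other groups overlapped. Eif3a rose in limma with TVA in siNTC cells (0.12 (SE 0.030, adjusted p = 0.0358)) and after knockdown without TVA (0.14 (SE 0.030, adjusted p = 0.012)), and after knockdown with TVA the difference was 0.0011. The first call was kept without siNTC replicate 1, siCreb1 replicate 3 or siCreb1+TVA replicate 1 and lost without any other single library (adjusted p up to 0.107 in limma), and the second held without each library. Under TPM the first was lost (0.12 in limma) and the second was kept (0.0136). With TPM over protein-coding genes both were kept (0.0304 and 0.00506 in limma). With quantile normalization the first was lost (0.151 in limma) and the second was kept (0.0128). The ratio of Eif3h to Eif3a was 4.90 ± 0.218 in siNTC, 4.20 ± 0.0575 in siNTC+TVA, 3.99 ± 0.0667 in siCreb1 and 3.91 ± 0.138 in siCreb1+TVA (SD, n = 3), a quantity that TPM leaves as it is and that quantile normalization changes.

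Eif3m, of the same module as Eif3h, was at 93.8, 91.5 and 93.6 FPKM in siNTC, 84.1, 93.3 and 89.1 in siNTC+TVA, 84.6, 83.9 and 82.0 in siCreb1 and 81.3, 79.8 and 82.0 in siCreb1+TVA. All siCreb1 libraries were below all siNTC libraries, and siNTC+TVA was spread over both ranges. It fell in limma after knockdown without TVA (-0.15 (SE 0.033, adjusted p = 0.0135)) and with TVA (-0.13 (SE 0.033, adjusted p = 0.0352)). Eif3k, which pairs with Eif3l at the edge of the complex, was at 84.1, 81.3 and 80.8 FPKM in siNTC, 73.0, 76.7 and 78.4 in siNTC+TVA, 74.1, 71.3 and 77.7 in siCreb1 and 71.2, 68.4 and 68.2 in siCreb1+TVA. Its siNTC libraries were the highest of the 12 and siCreb1+TVA the lowest, and Eif3k fell in limma after knockdown without TVA (-0.14 (SE 0.036, adjusted p = 0.0279)) and with TVA (-0.13 (SE 0.036, adjusted p = 0.0447)).

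Single libraries decided several of these calls in limma. For Eif3m the call without TVA was lost without siCreb1 replicate 3 (adjusted p = 0.0504), and the call with TVA was lost without siNTC+TVA replicate 2 or 3 or any siCreb1+TVA library (up to 0.111). For Eif3k the call without TVA was lost without siNTC replicate 1 or 2 or siCreb1 replicate 1 or 2 (up to 0.0959). With TVA it was kept only without siNTC replicate 1, siNTC+TVA replicate 1, siCreb1 replicate 2 or siCreb1 replicate 3, and lost without each of the other 8 (up to 0.13). All 4 calls were lost under TPM and under TPM over protein-coding genes. With quantile normalization the Eif3m call without TVA was kept (0.0254 in limma) and the others were lost. Among the subunits not called, the smallest unadjusted p with TVA after knockdown were those of Eif3l (-0.10 (SE 0.031, adjusted p = 0.0587)), Eif3c (-0.078 (SE 0.024, adjusted p = 0.0661)) and Eif3i (-0.12 (SE 0.036, adjusted p = 0.0674)). Eif3f, the second most abundant subunit at 241 FPKM, was not called.

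**Figure D4:**
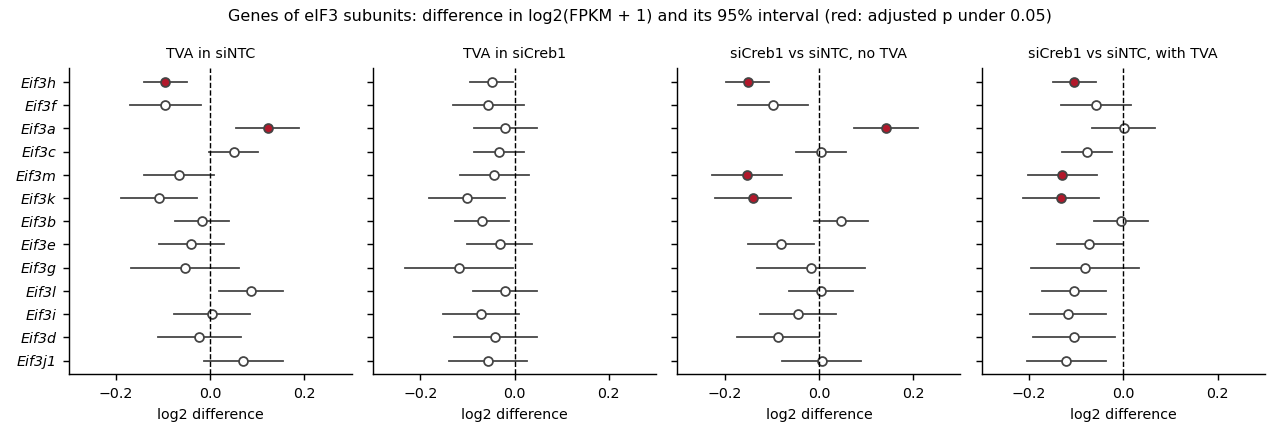
Difference in log2(FPKM + 1) of the 13 eIF3 genes in 4 comparisons, with its 95% interval as a line and called genes in red. With TVA in siCreb1 cells all 13 points lie left of 0 with none called, and Eif3a stands right of 0 in the panels for TVA in siNTC cells and for knockdown without TVA.

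Of the 11 genes of cap binding and unwinding, 3 were called. Eif4a1 was at 132, 132 and 133 FPKM in siNTC, 140.3, 141 and 141 in siNTC+TVA, 138, 142 and 139.8 in siCreb1 and 136, 138 and 136 in siCreb1+TVA. The 3 siNTC libraries were the lowest of the 12, and each siNTC+TVA library was above each siCreb1+TVA library. It rose in limma with TVA in siNTC cells (0.091 (SE 0.018, adjusted p = 0.0114)) and after knockdown without TVA (0.078 (SE 0.018, adjusted p = 0.0166)). With TVA in siCreb1 cells it differed by -0.033 (SE 0.018, adjusted p = 0.629). The first call held without each library in turn but was lost under TPM (0.136), and the second was lost without siCreb1 replicate 2 or 3 (0.0632 and 0.0505). Both were kept in limma under TPM over protein-coding genes (0.00741 and 0.00325) and quantile normalization (0.0209 and 0.0115), and the second also under TPM (0.0276). The pseudogene Eif4a-ps4 was at 86.6 ± 3.81 FPKM in siNTC, 91.7 ± 2.39 in siNTC+TVA, 88.4 ± 3.55 in siCreb1 and 86.5 ± 2.70 in siCreb1+TVA (SD, n = 3), and its part in the Eif4a1 values was not tested.

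The TVA difference of Eif4a1 was the one that limma called as unequal between siNTC and siCreb1 cells, with an interaction of -0.12 (SE 0.025, adjusted p = 0.0321). It was +6.53% in mean FPKM in siNTC cells and -2.28% in siCreb1 cells. The call was kept without siNTC replicate 3 or siCreb1 replicate 1 and lost without each of the other 10 libraries (adjusted p up to 0.0858 in limma). It was also lost under the replicate block (0.0615), without the mean-variance trend (0.136), under TPM over protein-coding genes (0.069), TPM (0.285) and quantile normalization (0.147). The next smallest unadjusted p in the interaction were those of Eif5a (-0.12 (SE 0.036, adjusted p = 0.128)), Eif3a (-0.14 (SE 0.043, adjusted p = 0.14)) and Eif2s2 (-0.14 (SE 0.049, adjusted p = 0.204)), which did not pass. The paralogue Eif4a2 was at 58.3, 60.7 and 62.4 FPKM in siNTC, 60.5, 60.3 and 61.0 in siNTC+TVA, 59.9, 59.3 and 56.6 in siCreb1 and 63.3, 64.6 and 63.2 in siCreb1+TVA. Each siCreb1+TVA library was above each siCreb1 library, with a difference of 0.12 (SE 0.029, adjusted p = 0.159) that did not pass in limma. Eif4a1 was 2.19 ± 0.0613 times Eif4a2 in siNTC, 2.33 ± 0.0167 times in siNTC+TVA, 2.39 ± 0.0859 times in siCreb1 and 2.14 ± 0.00823 times in siCreb1+TVA (SD, n = 3).

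Eif4g3, the least abundant eIF4G scaffold, was at 20.2, 20.4 and 19.4 FPKM in siNTC, 19.0, 19.3 and 19.2 in siNTC+TVA, 22.0, 21.5 and 21.1 in siCreb1 and 21.3, 22.2 and 21.3 in siCreb1+TVA. All 6 libraries with the Creb1 siRNA were above all 6 without it. Eif4g3 rose in limma after knockdown without TVA (0.10 (SE 0.029, adjusted p = 0.0384)) and with TVA (0.16 (SE 0.029, adjusted p = 0.00748)). The second call held in each of the 22 alternatives, with an adjusted p up to 0.0319, and was the one call among the members with TVA that TPM left. The first was kept without siNTC replicate 2 or siCreb1+TVA replicate 2 and lost without each of the other 10 libraries (up to 0.127). Eif4a3, which sits on spliced mRNAs, was at 59.2, 63.2 and 60.0 FPKM in siNTC, 64.4, 63.7 and 62.2 in siNTC+TVA, 60.4, 59.6 and 58.5 in siCreb1 and 57.0, 59.6 and 59.9 in siCreb1+TVA. Its siCreb1+TVA libraries were below each siNTC+TVA library and overlapped siCreb1, and Eif4a3 fell in limma after knockdown with TVA (-0.11 (SE 0.030, adjusted p = 0.0495)). That call is at the threshold: it was kept without siNTC replicate 1 or 2 and lost without each of the other 10 libraries (up to 0.157), and also with a pseudocount of 0.1 (0.0504). It was lost as well in limma under TPM (0.381), TPM over protein-coding genes (0.267) and quantile normalization (0.324), and in limma-voom (0.12). The cap-binding genes Eif4e, Eif4e2 and Eif4e3 and the scaffolds Eif4g1 and Eif4g2 were not called by limma in any of the 5 comparisons. The helicase cofactor Eif4h differed by -0.071 (SE 0.025, adjusted p = 0.0829) after knockdown without TVA, and Eif4b, the most abundant gene of this group, ranged from 186 to 216 FPKM. The repressors Eif4ebp1 and Eif4ebp2 and the transporter Eif4enif1 were not called.

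**Figure D5:**
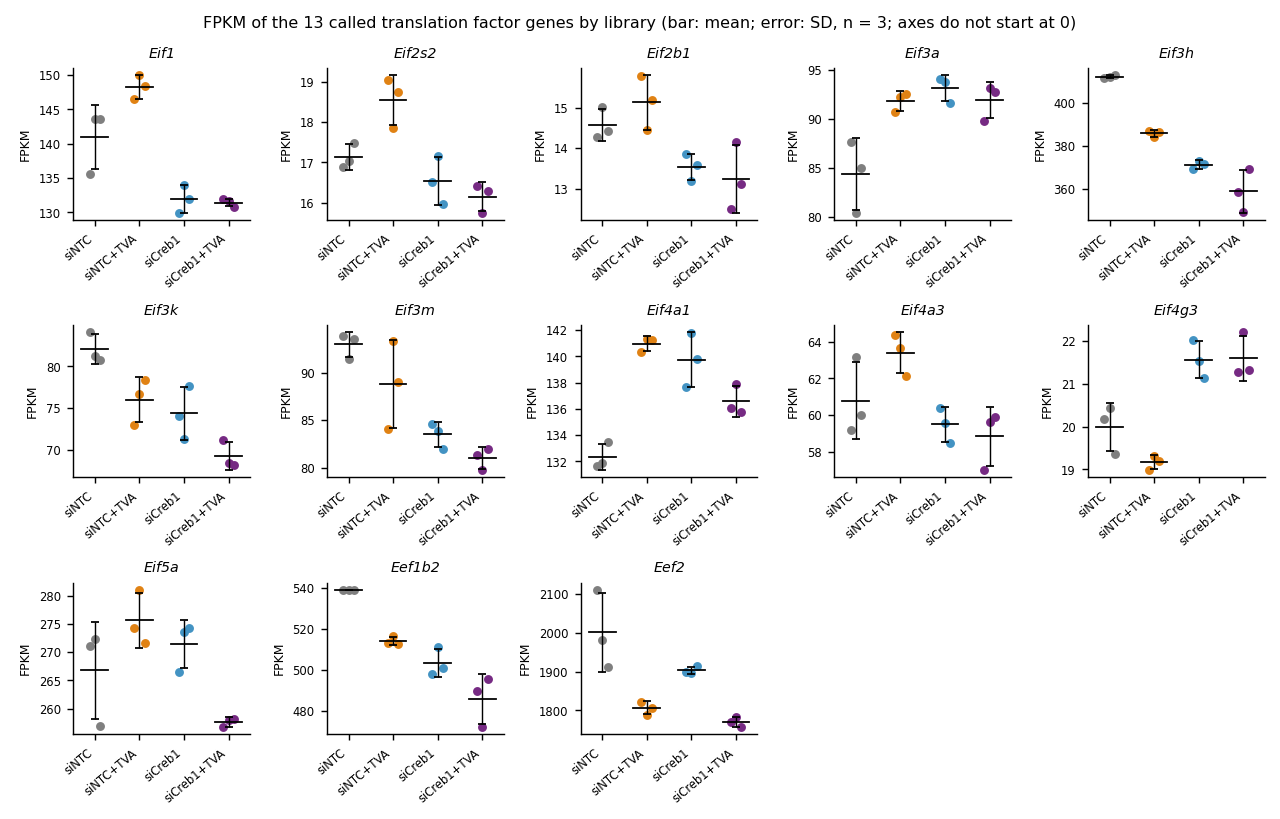
FPKM of the 13 called genes in each of the 12 libraries by group, with the mean as a bar and the SD of 3 libraries as the error. The axes do not start at 0 because the differences are small, and the group means of Eif3h, Eif3m, Eif3k and Eef1b2 step down from siNTC to siCreb1+TVA while the 6 siCreb1 and siCreb1+TVA libraries of Eif4g3 lie above the other 6.

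Of the genes of subunit joining and of eIF5A, Eif5a was called. Eif5a, which helps ribosomes past stalling sequences, was at 271, 272 and 257 FPKM in siNTC, 274, 281 and 272 in siNTC+TVA, 266, 274 and 274 in siCreb1 and 257, 258 and 258 in siCreb1+TVA. The siCreb1+TVA libraries were below each siNTC+TVA and each siCreb1 library, but siNTC replicate 3 was as low. It fell in limma after knockdown with TVA (-0.097 (SE 0.025, adjusted p = 0.0368)), and with TVA in siCreb1 cells the difference was -0.075 (SE 0.025, adjusted p = 0.348). The call was kept without each siNTC library or siCreb1 replicate 1 and lost without each of the other 8 (up to 0.12), and under quantile normalization the difference was -0.014. In limma it was also lost under TPM (0.341), TPM over protein-coding genes (0.219) and quantile normalization (0.788). Eif6, which keeps large subunits apart from small ones, was at 28.5 to 34.5 FPKM and was not called, nor were Eif5b and Eif5a2.

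Of the 6 elongation factor genes, Eef2 and Eef1b2 were called, both lower. All 6 were lower after knockdown with TVA (2 of 6 under TPM) and with TVA in siCreb1 cells (5 of 6 under TPM over protein-coding genes and under quantile normalization). Of all genes 54% were lower after knockdown with TVA (38.8% under TPM). With TVA in siCreb1 cells 50.8% were lower (37.4% and 48.3% under the 2 scalings named for it). Eef2 was at 2112, 1980.2 and 1911 FPKM in siNTC, 1823, 1789 and 1808 in siNTC+TVA, 1899, 1897 and 1914 in siCreb1 and 1771, 1784 and 1757 in siCreb1+TVA. Each TVA library was below each library of its own siRNA without TVA, and in siNTC the 3 replicates were further apart than in any other group. Eef2 fell in limma with TVA in siNTC cells (-0.15 (SE 0.031, adjusted p = 0.0172)), by 9.71% in mean FPKM. In siCreb1 cells the TVA difference was -0.10 (SE 0.031, adjusted p = 0.28) and did not pass, and the difference between both effects was 0.042 (SE 0.044, adjusted p = 0.731). The call was lost in 6 of its 22 alternatives. Among them were the fits without siNTC+TVA replicate 2 or 3 (0.0664 and 0.0554 in limma), TPM (0.0727) and quantile normalization, where the difference was -0.065. Without siNTC replicate 1, the library with the highest Eef2, it was -0.11 and passed.

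Eef1b2, a nucleotide exchange subunit that reloads eEF1A, was at 539, 539 and 539 FPKM in siNTC, 513, 516 and 513 in siNTC+TVA, 498, 511 and 501 in siCreb1 and 489.6, 472 and 496 in siCreb1+TVA. The 3 siNTC libraries were nearly equal, and the 4 groups did not overlap, in falling order from siNTC through siNTC+TVA and siCreb1 to siCreb1+TVA. It fell in limma after knockdown without TVA (-0.099 (SE 0.021, adjusted p = 0.0114)) and with TVA (-0.082 (SE 0.021, adjusted p = 0.0334)), and differed by -0.068 (SE 0.021, adjusted p = 0.0804) with TVA in siNTC cells. The call with TVA was lost without any siNTC+TVA library or siCreb1+TVA replicate 1 or 2 (up to 0.108), and under TPM (0.638 in limma). The call without TVA held without each library but not under TPM (0.355). The gene Ndufs1 on the other strand, at a mean of 9.86 FPKM, overlaps Eef1b2, and without a stated strand setting their reads cannot be told apart. Of the 61 members 12 have such a neighbour, and Eef1b2 is the one among the called genes. Eef1a1 was at 5499, 5108 and 5081 FPKM in siNTC, 5031, 4978 and 4978 in siNTC+TVA, 5201, 5071 and 5178 in siCreb1 and 4889.8, 4940.4 and 4945 in siCreb1+TVA. Its TVA libraries were below those without TVA in both siRNA groups, with differences of -0.065 (SE 0.030, adjusted p = 0.249) and -0.064 (SE 0.030, adjusted p = 0.544) that did not pass in limma. Eef1a1 and Eef2 kept close to each other, at a ratio of 2.58 to 2.81 in the 12 libraries. The exchange subunits Eef1g and Eef1d and the synthetase complex member Eef1e1 were not called, nor were Eef2k, the kinase that stops eEF2, and the methyltransferases Eef1akmt1, Eef1akmt2, Eef1akmt4 and Eef2kmt. Of these 5 modifiers Eef1akmt1 was the most abundant at 19.7 FPKM.

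Since Creb1 binds the cAMP response element (CRE), the promoters of the members were searched for its letters in the RefSeq table of GRCm38.p6, from 250 bases before to 50 after each annotated start. The motifs were TGACGTCA (full CRE), TGACG (short site, the CRE's first letters, which also lies in the full CRE) and CACGTG (E-box), on both strands, so that a short site on the opposite strand reads CGTCA. Of 61 members 49 had an entry, and of the 13 called members 12. The full CRE was in 1 member, Eef2 (2.04% of 49 against 2.03% of all 27025 genes with an entry). The short site was in 24 members (49.0% against 23.0%) and in 8 of the 12 called ones. The E-box was in 13 members (26.5% against 8.09%) and in 5 of 12. The 27025 genes were not limited to those expressed here, as the members were, and a share over the tested genes was not computed. These shares are therefore no measure of enrichment. For each called member with a short site, the site nearest to the start is shown in a window of 30 bases, read 5′ to 3′ on the gene's strand, with the full CRE or short site in capitals, to show how the sites differ in place and flanks. A match is a description of letters and not a sign of binding.
Eef2 (chr10:81176622-81176651, plus strand): aggccgggcgtTGACGTCAgcggtctcttc
Eif1 (chr11:100319928-100319957, plus strand): ggcagcgcgctggCGTCAcaggggcggcta
Eif2b1 (chr5:124579104-124579133, minus strand): cggcgccgacgagTGACGccacgcacgccg
Eif3a (chr19:60790771-60790800, minus strand): gcacccagcgccaCGTCAgcccgcgctcga
Eif3k (chr7:28982074-28982103, minus strand): tccagcgcacgcgCGTCAgaagcttaagta
Eif4a1 (chr11:69672413-69672442, minus strand): gcctacaaagtaaCGTCAcgtcgagttgca
Eif4a3 (chr11:119300069-119300098, minus strand): cggcgctgcggcgCGTCActtcctcccgac
Eif5a (chr11:69920946-69920975, minus strand): ggggccggccgggTGACGttggagcgacgc
The first base of the site was 3 bases after the start in Eef2 and 12 after in Eif2b1. It was 6, 8, 15 and 42 bases before the start in Eif4a1, Eif1, Eif5a and Eif4a3, and 94 and 202 before in Eif3a and Eif3k. These genes differ in direction, since Eif3a and Eif4a1 rose after knockdown without TVA and Eif1 and Eif3k fell. For Eif4a1, the gene with the interaction, the 250 bases before the start (chr11:69672424-69672673, minus strand) follow, with an E-box 189 bases before the start and the short site in capitals.
Eif4a1: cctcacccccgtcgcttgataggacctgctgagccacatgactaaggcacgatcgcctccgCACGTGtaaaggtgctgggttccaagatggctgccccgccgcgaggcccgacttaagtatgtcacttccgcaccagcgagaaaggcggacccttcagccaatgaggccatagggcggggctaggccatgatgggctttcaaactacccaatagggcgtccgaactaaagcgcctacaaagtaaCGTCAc

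Genes of the same pathway outside the set were counted from 6 lists. Of 82 cytosolic ribosomal protein genes 8 fell with TVA in siNTC cells, 0 with TVA in siCreb1 cells, 16 after knockdown without TVA and 23 after knockdown with TVA (9.76%, 0%, 19.5% and 28%, against 7.38%, 0.537%, 13.7% and 10.1% of all genes), with 0 called higher in each and 0 in the interaction, where 8 had an unadjusted p under 0.05 and limma-voom called 3. Under TPM the 4 counts became 1, 0, 3 and 2. The called ones fell by 0.074 to 0.24 on the log2 scale, most for Rps27l after knockdown with TVA. For TVA in siCreb1 cells 44 reached an unadjusted p under 0.05 in limma, each of them lower, and limma-voom called 12. Their medians were -0.047, -0.077, -0.056 and -0.091 in the 4 comparisons, the last -0.038 under TPM, and after knockdown without TVA the median turned to 0.017 under quantile normalization. Of 12 termination, recycling and rescue genes 0 were called by limma or limma-voom, and 1, the rescue factor Hbs1l, had an unadjusted p under 0.05, with TVA in siCreb1 cells (0.12 (SE 0.050, adjusted p = 0.481)). Of 10 mitochondrial factors Mtif3, an initiation factor, fell, with -0.23 (SE 0.053, adjusted p = 0.0158) after knockdown without TVA in limma. That call was lost under TPM (0.0539) and without siNTC replicate 2 or siCreb1 replicate 2 (up to 0.0554).

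Among 13 genes of poly(A) binding and cap control, Paip2, an inhibitor of the poly(A) binding protein, was at 68.4, 69.4 and 69.6 FPKM in siNTC, 68.5, 68.5 and 69.9 in siNTC+TVA, 62.3, 63.6 and 64.2 in siCreb1 and 62.2, 59.8 and 62.8 in siCreb1+TVA. Its 6 siCreb1 and siCreb1+TVA libraries were below the other 6, and it fell in limma without TVA (-0.12 (SE 0.024, adjusted p = 0.00743)) and with TVA (-0.16 (SE 0.024, adjusted p = 0.0037)). The helicase Ddx3x fell in both as well (-0.11 and -0.16, adjusted p = 0.042 and 0.0128 in limma), and Paip2b fell with TVA (-0.18 (SE 0.040, adjusted p = 0.0204)). All 5 of these falls were lost under TPM, where the adjusted p in limma was 0.202 and 0.0998 for Paip2, 0.343 and 0.139 for Ddx3x and 0.0562 for Paip2b. The Paip2 calls held without each library in turn, as did that of Ddx3x with TVA. Both Paip2 calls were kept in limma under TPM over protein-coding genes (0.0376 and 0.0144) and quantile normalization (0.0355 and 0.022), where both Ddx3x calls were lost. Without TVA the Ddx3x call was kept only without siNTC replicate 2 (up to 0.121 without the others), and that of Paip2b was lost without siNTC+TVA replicate 2 or 3 or siCreb1+TVA replicate 1 (up to 0.076). Larp1, which binds the messages of ribosomal proteins and of elongation factors, was at 58.2, 58.1 and 57.8 FPKM in siNTC, 61.4, 61.0 and 60.2 in siNTC+TVA, 64.5, 62.8 and 61.5 in siCreb1 and 59.5, 58.5 and 56.8 in siCreb1+TVA. Its siCreb1 libraries were the highest of the 12, so that it rose without TVA (0.12 (SE 0.024, adjusted p = 0.0108)), and its interaction was -0.18 (SE 0.034, adjusted p = 0.0229) in limma. The rise held under TPM and without each library in turn. The interaction was lost under TPM (0.207) and quantile normalization (0.0548), and without siNTC replicate 3, siNTC+TVA replicate 1 or 2, siCreb1 replicate 1 or 2 or siCreb1+TVA replicate 2 or 3 (up to 0.0632).

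Among 16 signalling genes 3 fell after knockdown without TVA in limma (18.8%, against 13.7% of all genes called and 7.21% called lower). Mknk2, a kinase of eIF4E, was at 142, 137 and 131 FPKM in siNTC, 129.5, 129 and 130.0 in siNTC+TVA, 117, 115 and 121 in siCreb1 and 122, 124 and 126 in siCreb1+TVA, a difference of -0.21 (SE 0.029, adjusted p = 0.00133). All its siCreb1 and siCreb1+TVA libraries were below the siNTC and siNTC+TVA libraries. Ppp1r15a, which directs the phosphatase to eIF2, was at 8.90, 8.77 and 8.75 FPKM in siNTC, 8.59, 8.51 and 7.90 in siNTC+TVA, 6.84, 6.93 and 5.82 in siCreb1 and 7.02, 6.49 and 7.78 in siCreb1+TVA, and with -0.38 (SE 0.069, adjusted p = 0.00517) was the largest difference among the called neighbours. Akt1s1, the mTORC1 inhibitor PRAS40, was at 13.1, 13.3 and 11.9 FPKM in siNTC, 10.6, 10.8 and 11.04 in siNTC+TVA, 11.2, 10.5 and 10.8 in siCreb1 and 12.3, 11.7 and 11.5 in siCreb1+TVA. The siNTC libraries were higher than siNTC+TVA and siCreb1, with -0.22 (SE 0.045, adjusted p = 0.0143) for TVA in siNTC cells, -0.22 (SE 0.045, adjusted p = 0.0107) for knockdown without TVA and an interaction of 0.34 (SE 0.064, adjusted p = 0.0221) in limma. The calls of Mknk2 and Ppp1r15a held in each alternative. Under TPM the knockdown call of Akt1s1 (0.0582) and its interaction (0.0538) were lost and its fall with TVA was kept (0.0382). Its fall with TVA was lost without siNTC replicate 1 or 2 or siNTC+TVA replicate 2 (up to 0.0551), and its interaction was kept only without siNTC replicate 3, siNTC+TVA replicate 3, siCreb1 replicate 1 or siCreb1+TVA replicate 3 (up to 0.0613 without the others). Of 9 genes that make hypusine on eIF5A or diphthamide on eEF2, Dph3 fell after knockdown without TVA (-0.16 (SE 0.044, adjusted p = 0.0348)) and with TVA (-0.33 (SE 0.044, adjusted p = 0.00233)), from 6.06 to 6.74 FPKM in the 6 libraries without the Creb1 siRNA to 4.80 to 5.74 FPKM in the 6 with it. The Dph3 call with TVA held in each alternative. That without TVA was lost under TPM (0.137) and without any siNTC or siCreb1 library or siCreb1+TVA replicate 3 (up to 0.118).

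The genes most like the called members over the 12 libraries, by Pearson correlation of log2(FPKM + 1) with the 11550 genes, included each other and ribosomal protein genes. Eif3h and Eef1b2 were each other's nearest (r = 0.983). After Eef1b2, Eif3h was nearest to Slfn1 and Nop53, and after Eif3h, Eef1b2 was nearest to Rps3a1 and Nop53. Eef2 was nearest to Rps6 (r = 0.957), Rpsa and Rps4x, all parts of the small ribosomal subunit. Eif3k was nearest to Fam78a (r = 0.930), Thap11 and Rplp0, and Eif5a to Fkbp1a (r = 0.920), Bloc1s3 and Rpl29. Eif1 was nearest to Tmsb4x (r = 0.969), Pgrmc2 and Ndufb5, and Eif2s2 to Serpine2 (r = 0.951), Ddx39 and Aggf1. Of the members that rose, Eif3a was nearest to G2e3 (r = 0.955), Kpnb1 and Fam111a, Eif4a1 to Nkg7 (r = 0.923), Rbl1 and Mad2l1 and Eif4g3 to Nek3 (r = 0.962), Kmt2d and Skil. Eif3m was nearest to the processed pseudogene Gm6863 (r = 0.957), Srgn and Sfxn3, Eif2b1 to Tbc1d22a (r = 0.914), Atp6ap2 and Icam2 and Eif4a3 to Cdk7 (r = 0.8998), Tmco4 and Pqlc1. These values describe 12 libraries that share their groups and their scaling.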

How the data were processed

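RNA-seq was analysed from 12 libraries of mouse primary CD8+ T cells in 4 groups of 3, grouped by the labels. The authors counted reads per gene and deposited them as FPKM for each library, and the builds named in the submitters' processing notes are GRCm38 and mm10. The aligner, counter and strand setting are not given in the sources used here. Whole reads were recovered from the FPKM steps (at least 99.995% of values within 0.05 reads of a whole number), giving 16660234 to 24602484 reads per library. Replicates of a group differed by more than counting error.

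The 11550 genes with a mean of at least 1 FPKM were fitted together on log2(FPKM + 1) with limma 3.58.1 in R 4.3.3 (trend, 4 group means, 5 contrasts, two-sided), with Benjamini-Hochberg adjustment and a threshold of 0.05. On this scale the difference of a weakly expressed gene comes out too small. The code was tested on simulated data. Tables were joined with data.table (version 1.17.8), pandas 2.3.3 and numpy 2.4.6, and plots were drawn with matplotlib 3.10.9.

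The members, lists and roles were chosen with earlier results of these data known. Named are all called members, the most abundant uncalled member of each role, the extremes in level, the paralogues, the 3 uncalled members with the smallest p per comparison, the 3 genes most like each called member, and the called genes of 6 pathway lists, with ribosomal protein genes given by count. Alternatives were a pseudocount of 0.1, 2 other filters, quantile normalization, TPM, a replicate block, no trend, limma-voom on the recovered reads, only the libraries compared, and each library left out. TPM over protein-coding genes was added after seeing the data. Same-numbered libraries did not deviate together (correlations from -0.059 to 0.06), so numbers were not used as pairs. Promoter sequences are from RefSeq on GRCm38.p6.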

Additional observations from a re-analysis of the deposited data

Results flagged for a closer look

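The difference between the TVA effects in siCreb1 and siNTC cells was past the threshold for 1 of the 61 translation factor genes, Eif4a1, with a log2 value of -0.12 (SE 0.025, adjusted p = 0.0321) in limma with Benjamini-Hochberg adjustment over 11550 genes. Of all genes 2.24% passed, above the 1.64% of the members. The Eif4a1 call was lost in 15 of its 21 alternatives, among them 10 of the 12 that leave out a single library. All 3 siNTC+TVA libraries were above the 3 siNTC libraries. Of the siCreb1+TVA libraries, replicates 1 and 3 lay below each siCreb1 library and replicate 2 lay within their range.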

How the results depend on the processing

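No difference called for a named gene changed sign under any of its 22 alternatives (21 for the interaction), and 886 of their single values stayed on the same side of the threshold, 255 lost the call and 18 gained it. The Creb1 difference passed in each alternative. Of the counts and medians 206 kept within the set range and 79 moved, and where no alternative is named for a count or median below it kept within that range. The cause of the moves was not tested, other than the smaller or larger number of genes or libraries in the fit. A change under about 0.1 on the log2 scale is near the limit of 3 libraries a group, with a median standard error of 0.036 over the members.

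The number of all genes called also moved with the setting, so a count without its share does not tell a move of the members from one of all genes. Members called with TVA in siNTC cells (4) became 1 with all genes above 0 tested, 1 with quantile normalization, 0 with TPM and 1 without the trend. They became 7 with limma-voom (11.5% against 8.77% of all genes), 0 with only the compared libraries, and 1 to 5 without single libraries. With TVA in siCreb1 cells (0) limma-voom gave 2 (3.28% against 1.36% of all genes) and single libraries left out gave 0 to 1. After knockdown without TVA (8) the counts in the same order were 5 with all genes above 0, 3 with TPM, 4 without the trend, 2 with only the compared libraries and 4 to 10 without single libraries. After knockdown with TVA (10) they were 4 with all genes above 0, 5 with quantile normalization, 1 with TPM, 5 without the trend, 6 with only the compared libraries, 5 with protein-coding TPM and 4 to 13 without single libraries. In the interaction (1) they were 0 with quantile normalization, 0 with TPM and 0 with protein-coding TPM, against 2.1%, 1.32% and 2.2% of all genes. They were 0 without the trend, 3 with limma-voom (4.92% against 3.86% of all genes) and 0 to 1 without single libraries. The fit with the replicate number as a block gave 3, 0, 10, 6 and 0 calls in the 5 comparisons, and since same-numbered libraries did not deviate together the pairing rests on a number alone.

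The member median with TVA in siNTC cells was 0.015 with limma-voom, 0.018 with protein-coding TPM and -0.0034 to 0.012 without single libraries. With TVA in siCreb1 cells it was -0.023 with quantile normalization, -0.022 with limma-voom, -0.0057 with protein-coding TPM and -0.039 to -0.029 without single libraries. After knockdown without TVA it was 0.00083 with quantile normalization, 0.016 with TPM, -0.0094 with limma-voom, 0.010 with protein-coding TPM and -0.036 to -0.016 without single libraries. After knockdown with TVA it was -0.036, -0.022, -0.057, -0.023 and -0.074 to -0.063 in the same order. In the interaction it was -0.032 with quantile normalization, -0.031 with protein-coding TPM and -0.053 to -0.023 without single libraries. Members without overlap between groups, 88 in all over the 4 comparisons, were 45 with TPM and 55 with quantile normalization, that is 36.1%, 18.4% and 22.5% of the member comparisons against 26.1%, 23.4% and 24.9% of those of all genes. The 43 called pathway genes were 15 with all genes above 0, 18 with quantile normalization, 10 with TPM, 28 without the trend, 25 with protein-coding TPM and 27 to 44 without single libraries.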
